A study of Mus musculus with 2 samples.

Results

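Scavenger receptors are surface and endosomal proteins with which macrophages take up modified lipoproteins, dying cells, microbes and other polyanionic or damaged material. They are grouped by structure and not by descent: class A receptors carry a collagen-like stem, class B receptors form a hairpin anchored at both ends, and the others are lectin-like, stabilin, cysteine-rich or mucin-like proteins. In macrophages they feed lipid into foam cell formation and clear oxidised lipoproteins, haemoglobin and cell debris. The group described here was a list of 10 genes (Msr1, Marco, Cd36, Scarb1, Scarb2, Mrc1, Cd163, Stab1, Cd68 and Olr1), represented by every probe set that the platform annotation assigned to 1 of these symbols alone. These were 19 probe sets of the 45037 on the arrays, and 10 genes of 18193.

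The macrophages came from the peritoneum of male C57BL/6 mice and were transfected either with siRNA to HDAC9, one of the class IIa histone deacetylases, or with a control siRNA. Total RNA was taken 48 h later and hybridised to Affymetrix expression arrays, 1 array for HDAC9 siRNA and 1 for control siRNA. The labels give no ages or number of mice and no siRNA sequences, and do not say how the macrophages were purified. Having no replicates, the design allowed no test and no p-value, and each difference compares 2 arrays and not 2 conditions.

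Signals are given as the deposited log2 values. A signal counted as above background when it exceeded a floor of 6.35 log2, the 95th percentile of 78 probe sets that read smell and pheromone receptor genes, which are silent in most tissues. On the HDAC9 siRNA array 53.4% of probe sets were above the floor, and on the control array 51.2%. The siRNA target was near the floor. Hdac9 probe set 1434572_at had 5.69 log2 on the HDAC9 siRNA array, below background, and 6.88 on the control array, a difference of at least 1.44-fold. The other Hdac9 probe set (1421306_a_at) had 5.94 on the HDAC9 siRNA array and 5.99 on the control array, both under the floor. The arrays therefore give only a bound on any Hdac9 difference, from 1 probe set, and do not establish a knockdown.

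Most scavenger receptor genes differed little between the arrays. Of the 10 genes, 8 were above background on both arrays, and with them 16 of the 19 probe sets. None of the 8 genes was 2-fold higher on the HDAC9 siRNA array, against 1.4% of the 12016 genes above background, and none was 2-fold lower, against 0.366%. At 1.5-fold the counts were also 0 in both directions, against 7.72% of genes higher and 2.73% lower. The median log2 difference, HDAC9 siRNA minus control, was 0.05 over the 8 genes, each taken by its brightest probe set, and 0.03 over all genes above background. Counts of 0 among 8 genes are near this background. Within that narrow range Cd36 was lower by each of its 3 probe sets, and Scarb1 and Stab1 were higher by each of theirs.

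**Figure D1:**
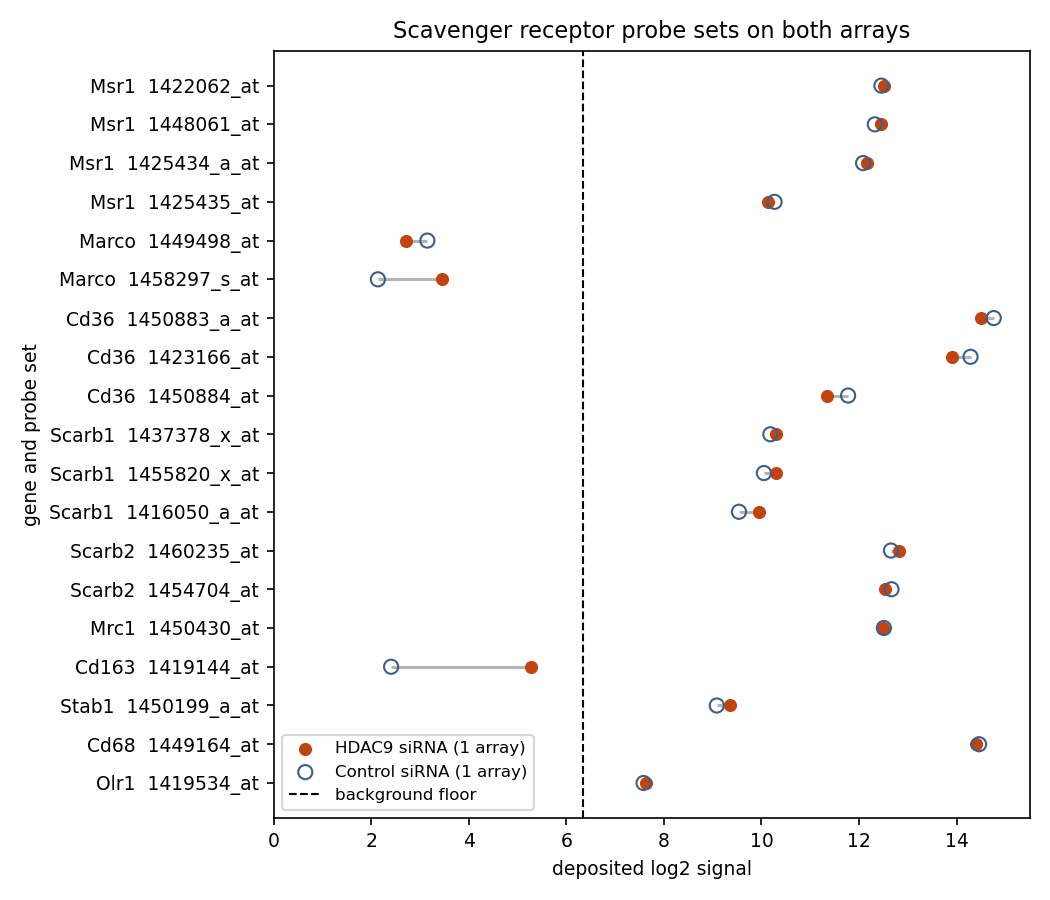
Deposited log2 signal (horizontal axis) of the 19 scavenger receptor probe sets (rows), with the HDAC9 siRNA array as filled and the control siRNA array as open circles and the background floor of 6.35 as a dashed line. The circles lie close together for most probe sets, and the 2 Marco probe sets and the Cd163 probe set lie left of the floor on both arrays; levels of different probe sets are not comparable with each other.

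Because replicates were lacking, the size of a difference was read against the scatter between probe sets of 1 gene. For each gene, the log2 differences given by its 2 brightest probe sets were subtracted from each other; the scatter is the standard deviation of these gaps over the square root of 2, that is, the error of a single probe set. It was 0.29 over 5655 genes. After ranking probe sets by mean signal and dividing them into 4 bins of equal size, it was 0.40 in the dimmest bin, 0.38 in the next, 0.25 in the third and 0.16 in the brightest, which held 11 of the 16 member probe sets. The scatter covers probe behaviour and transcript differences but not the spread between cultures. With signals raised to the floor, Hdac9 probe set 1434572_at differed by -0.53, a bound. In size this bound was past the 0.40 of the dimmest bin, where it lay. Being a bound, it cannot say whether the difference reached 2 times that scatter.

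Cd36 encodes a class B receptor for oxidised low-density lipoprotein, long-chain fatty acids and apoptotic cells. Probe set 1450883_a_at had 14.51 log2 on the HDAC9 siRNA array and 14.76 on the control array, a difference of -0.26. Probe set 1423166_at had 13.92 on the HDAC9 siRNA array and 14.29 on the control array, a difference of -0.37. Probe set 1450884_at had 11.35 on the HDAC9 siRNA array and 11.78 on the control array, a difference of -0.43. Cd36 was thus lower on the HDAC9 siRNA array by all 3 probe sets, by 1.19-fold, 1.29-fold and 1.35-fold, and their differences had a standard deviation of 0.09 among themselves. In a bulk preparation, fewer cells of a type and less RNA per cell cannot be told apart.

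The Cd36 differences were toward the low end for bright probe sets. They were 1.62, 2.36 and 2.74 times the scatter of the brightest bin, in the order given. In that bin, whose median was -0.04, 11.9%, 4.31% and 2.63% of probe sets had differences as low or lower. With the values as deposited, the last 2 were the only member probe sets past 2 times the scatter of their bin in the lower direction, which 3.69% of all probe sets above background passed. None was past it in the higher direction, against 6.47% of all probe sets. Of 2059 genes with at least 3 probe sets above background on both arrays, 340 (16.5%) were lower by all of them. Those lower by at least 0.25 log2 in all of them numbered 26 (1.26%). This limit was chosen after the Cd36 values were seen and lies just under the smallest of them in size, so the share is no test. In the same order, the Cd36 differences were -0.19, -0.31 and -0.39 after quantile normalization and -0.18, -0.30 and -0.39 after loess. Under both, only the last exceeded 2 times the scatter given above, and the first did not reach 0.25 log2. Probe sets of 1 gene read the same RNA on the same arrays and are not replicates. The highest signal on either array was 15.19 on the HDAC9 siRNA array and 15.18 on the control array, and the brightest Cd36 probe set, nearest to these, had the smallest of the 3 differences.

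**Figure D2:**
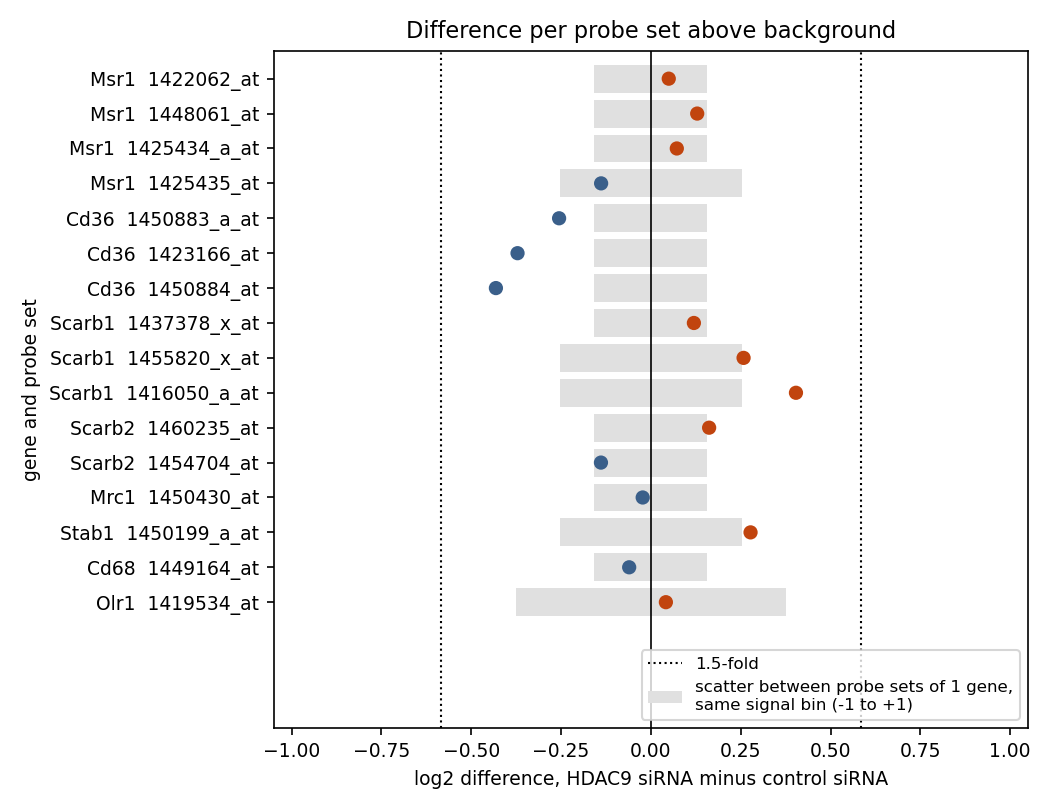
Log2 difference, HDAC9 siRNA minus control siRNA (horizontal axis), of the 16 member probe sets above background (rows), with grey bars for 1 scatter either side of 0 in the probe set's signal bin and dotted lines at 1.5-fold. The 3 Cd36 probe sets lie left of their bars, at -0.26 to -0.43, the 3 Scarb1 probe sets lie between 0.12 and 0.40, and no point reaches a dotted line.

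Scarb1, the class B receptor that takes up cholesteryl ester from high-density lipoprotein, differed in the other direction. Probe set 1416050_a_at had 9.94 log2 on the HDAC9 siRNA array and 9.54 on the control array, a difference of 0.40. Probe set 1455820_x_at had 10.31 on the HDAC9 siRNA array and 10.05 on the control array, a difference of 0.26. Probe set 1437378_x_at had 10.30 on the HDAC9 siRNA array and 10.18 on the control array, a difference of 0.12. All 3 were higher on the HDAC9 siRNA array, by 1.32-fold, 1.20-fold and 1.09-fold, or 1.59, 1.02 and 0.76 times the scatter of their bins. Of the genes with at least 3 probe sets above background on both arrays, 346 (16.8%) were higher by all of them. Those higher by at least 0.1 log2, a limit just under the smallest Scarb1 difference, in all of them numbered 189 (9.18%). The suffix _x_at marks probe sets whose probes can also match other sequences, and _a_at those that read several transcripts of 1 gene, and Scarb1 had no probe set free of such a suffix.

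Scarb2 encodes LIMP-2, a class B protein of the lysosomal membrane that carries glucocerebrosidase to lysosomes. Probe set 1460235_at had 12.82 log2 on the HDAC9 siRNA array and 12.66 on the control array, a difference of 0.16. Probe set 1454704_at had 12.53 on the HDAC9 siRNA array and 12.67 on the control array, a difference of -0.14. The probe sets pointed in opposite directions by about the scatter of their bin, so Scarb2 had no settled direction. The 3 class B genes therefore had a lower, a higher and a mixed reading, and whether they differ from each other could not be tested with 1 array per group.

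The class A receptor Msr1, also called SR-A, binds acetylated and oxidised low-density lipoprotein and lipopolysaccharide and was well above background by 4 probe sets. Probe set 1422062_at had 12.51 log2 on the HDAC9 siRNA array and 12.46 on the control array, and 1448061_at had 12.45 on the HDAC9 siRNA array and 12.32 on the control array. Probe set 1425434_a_at had 12.16 on the HDAC9 siRNA array and 12.08 on the control array, and 1425435_at had 10.13 on the HDAC9 siRNA array and 10.27 on the control array. The differences were 0.05, 0.13, 0.07 and -0.14, each smaller than the scatter of its bin, with 3 higher and 1 lower. Marco, the other class A receptor and a receptor for bacteria and unopsonised particles, was below background on both arrays by both probe sets. Probe set 1449498_at had 2.72 log2 on the HDAC9 siRNA array and 3.15 on the control array, and 1458297_s_at had 3.45 on the HDAC9 siRNA array and 2.14 on the control array. Marco therefore has only an upper bound on each array, and no fold is given.

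Receptors outside classes A and B were each read by 1 probe set. Stab1, the stabilin that binds acetylated lipoprotein and the matrix protein SPARC, had 9.36 log2 on the HDAC9 siRNA array and 9.09 on the control array (1450199_a_at). It was 1.21-fold higher, a difference of 0.28 or 1.09 times the scatter of its bin, and 32.1% of probe sets in that bin had a difference at least as large in either direction. Mrc1, the mannose receptor CD206, had 12.49 log2 on the HDAC9 siRNA array and 12.51 on the control array (1450430_at). Cd68, the endosomal glycoprotein macrosialin that is used as a macrophage marker, had 14.40 log2 on the HDAC9 siRNA array and 14.46 on the control array (1449164_at). Olr1, the lectin-like receptor LOX-1 for oxidised low-density lipoprotein, had 7.63 log2 on the HDAC9 siRNA array and 7.58 on the control array (1419534_at). The differences of Mrc1 (-0.02), Cd68 (-0.06) and Olr1 (0.04) were all smaller than the scatter of their bins, and their signs turned under at least 1 other scaling. Cd163, the receptor for haemoglobin bound to haptoglobin, was below background on both arrays, at 5.28 log2 on the HDAC9 siRNA array and 2.41 on the control array (1419144_at), and no fold is given.

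Counted by genes, 2 of the 8 were higher by more than 1 scatter of their bin (Stab1 and Scarb2), against 22.3% of all genes, and 1 was lower (Cd36), against 16.0%. Scarb2 counts here only through the brighter of its 2 disagreeing probe sets. By the median over probe sets Scarb2 was at 0.01 and not past the limit, and the 2 higher genes were Stab1 and Scarb1 (0.26), against 22.1% of all genes, with Cd36 again the 1 lower gene (-0.37), against 15.1%. The limit of 1 scatter and this recount were chosen after the values were seen. The share of members past it was close to that of all genes in the higher direction and in the lower one.

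**Figure D3:**
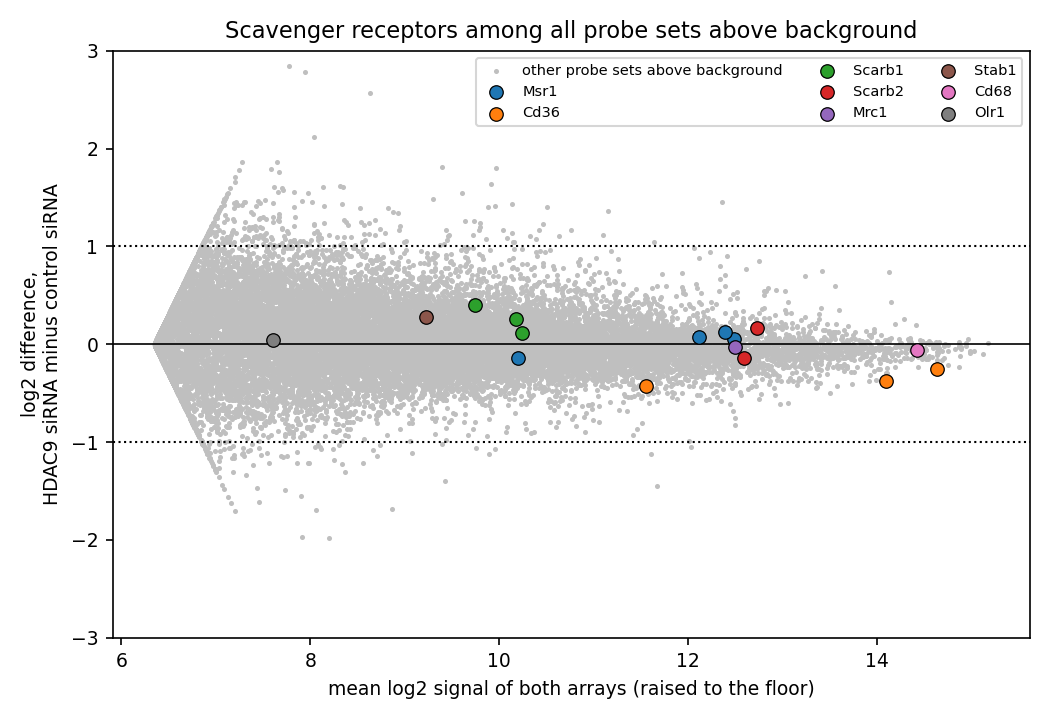
Log2 difference, HDAC9 siRNA minus control siRNA (vertical axis), against mean log2 signal of both arrays raised to the floor (horizontal axis), for all 21887 probe sets with 1 gene symbol above background (grey) and for the member probe sets (coloured by gene); dotted lines mark 2-fold. The Cd36 points lie toward the lower side of the narrow band of bright probe sets, at -0.26 to -0.43, and no member reaches a dotted line.

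Promoter sequence is shown for Cd36, the member with the lowest differences, for Stab1, with the highest brightest-probe-set difference, and for Cd68, a bright member with a difference near 0. Each is the 250 bases before the annotated start in RefSeq (GRCm38.p6), 5′ to 3′ on the gene's strand, which is the minus strand for all 3: chr5:17835897-17836146 for Cd36, chr14:31168642-31168891 for Stab1 and chr11:69666171-69666420 for Cd68. Capitals mark matches on either strand to GAGGAA, the core read by the macrophage factor PU.1, to TGANTCA, the AP-1 motif, and to CCAAT, the CCAAT box. A gene can have further promoters, and the table of sequences held 1 for Cd36.
Cd36: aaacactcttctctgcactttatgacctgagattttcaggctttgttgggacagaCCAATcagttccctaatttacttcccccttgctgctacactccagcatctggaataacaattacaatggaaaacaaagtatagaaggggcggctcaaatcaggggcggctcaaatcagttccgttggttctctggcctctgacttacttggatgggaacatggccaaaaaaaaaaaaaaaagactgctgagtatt
Stab1: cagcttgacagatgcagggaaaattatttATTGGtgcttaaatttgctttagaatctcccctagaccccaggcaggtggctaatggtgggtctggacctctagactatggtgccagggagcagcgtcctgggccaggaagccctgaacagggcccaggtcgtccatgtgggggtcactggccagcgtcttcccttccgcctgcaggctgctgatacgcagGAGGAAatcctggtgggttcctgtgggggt
Cd68: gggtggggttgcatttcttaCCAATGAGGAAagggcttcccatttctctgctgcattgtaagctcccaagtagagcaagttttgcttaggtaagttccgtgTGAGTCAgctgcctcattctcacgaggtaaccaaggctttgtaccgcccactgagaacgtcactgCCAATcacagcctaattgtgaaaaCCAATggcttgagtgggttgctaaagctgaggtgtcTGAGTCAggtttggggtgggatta

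Of the 10 members, 8 had an entry in the promoter table. GAGGAA was found in 5 of these 8 windows and in 23.3% of all 32851 windows of the table. It was present in those of Mrc1 (3 matches), Marco, Olr1, Cd68 and Stab1 and not in that of Cd36. TGANTCA was found in 2 of the 8, Cd68 (2 matches) and Olr1, against 6.75% of all windows. CCAAT was found in 6 of the 8, against 33.8%, with 3 matches in Cd68, where 1 directly adjoins the GAGGAA match. The motif of MEF2, the transcription factor family to which class IIa deacetylases bind, had a match in 0 of the 8 windows, against 2.92% of all windows. A match is a run of letters and not a measured site, and the absence of one says only that these letters are not in the window.

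Other scavenger receptors outside the list included 1 large difference. Of 12 such genes, 7 were above background, with a median difference of 0.36, of which 1 was 2-fold higher and 0 lower. Over all genes 1.4% were 2-fold higher and 0.366% lower. Scarf2, of the class F receptors, had 8.75 log2 on the HDAC9 siRNA array and 7.21 on the control array, 2.92-fold higher, and its other probe sets were below background. Cd5l, a secreted scavenger cysteine-rich protein of macrophages, had 7.91 on the HDAC9 siRNA array and 7.41 on the control array (0.50). Cxcl16, a membrane chemokine that also binds oxidised lipoprotein, had 12.22 on the HDAC9 siRNA array and 11.81 on the control array (0.41), and Scarf1 was at 0.36. Stab2, the relative of Stab1, was at -0.33.

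Lipoprotein receptors of the low-density lipoprotein receptor family included 3 of the larger differences. Of 10 listed, 7 were above background, 0 passed 2-fold, 3 were at least 1.5-fold higher, against 7.72% of all genes, and the median was 0.20. Lrp1, a large endocytic receptor for apolipoprotein E and haemopexin, had 12.71 log2 on the HDAC9 siRNA array and 11.77 on the control array, 1.92-fold higher, and its second probe set was at 0.60. Lrp8 was at 0.75 by its only probe set above background. Sorl1 was at 0.61, 0.51 and, as a bound, 0.19 by its 3 probe sets, and Lrp6 at 0.20 and -0.04 by its 2.

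Genes that store or export the lipid brought in by these receptors stayed within a narrow range. All 18 measured members of 20 were above background, with differences by the brightest probe sets from -0.27 (Dgat2, a triglyceride synthesis enzyme) to 0.17 (Abcg1, a sterol exporter), a median of -0.08 and 0 past 1.5-fold. The second Dgat2 probe set was at -0.23. Several of the genes read both ways: the second Abcg1 probe set was at -0.27, Cpt1a was at -0.22, -0.08 and 0.08 by its 3 probe sets, and Nceh1 at 0.16, -0.07 and -0.26. Of 17 listed CD36 partners and signalling genes, the 16 measured ranged from -0.25 to 0.29 by their brightest probe sets, with a median of -0.005 and 0 past 1.5-fold. Over all genes 7.72% were 1.5-fold higher and 2.73% lower. The tetraspanin gene Cd9 had 13.91 log2 on the HDAC9 siRNA array and 14.16 on the control array (-0.25), and Nlrp3 was at 0.21, each by 1 probe set. Mapk8, a stress kinase, was at 0.29 by its brightest probe set and at 0.37, 0.33 (a bound), -0.24 and -0.65 by the others, so it had no settled direction. Vav2 was at 0.20, with its dimmer probe sets at 0.004 and -0.05 as bounds. The kinase gene Src, named after its values were seen, was at 0.15 by its brightest probe set and at 1.30 by the other, past 2-fold.

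Transcription factors named as regulators of these receptors had 20 of 23 above background and a median of 0.11, with 0 past 2-fold. Pparg, the nuclear receptor known to activate Cd36, had 9.28 log2 on the HDAC9 siRNA array and 9.72 on the control array by its only probe set, 1.36-fold lower (-0.44). Its relative Ppard was 1.61-fold higher (0.69), their partner Rxra was at 0.40 and the coactivator gene Ppargc1b at 0.38. The Pparg difference had the same sign as those of Cd36 (-0.26 by its brightest probe set, -0.37 and -0.43 by the others). Any link between the 2 genes was not tested.

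The cargo of Cd163 and Scarb2 is handled by 2 further lists. Of 18 haemoglobin and iron genes, 16 were above background, 0 passed 2-fold and the median was 0.03. Besides Lrp1, the largest differences were in Hp, which encodes haptoglobin (-0.55), Slc48a1, a haem transporter of the lysosome (-0.43), and Slc40a1, the iron exporter ferroportin (0.34, with its second probe set at 0.06). Of 9 partners of Scarb1 and Scarb2, 6 were above background with a median of 0.04. Dnase2a, a lysosomal nuclease, was at 0.71, the lysosomal membrane gene Lamp2 at -0.29, Npc1 at 0.10 and Lamp1 at -0.07.

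Mrc1 is often used with other genes as a marker of alternative activation. Of 15 such genes without Mrc1, 9 were above background with a median of 0.56 and 0 past 2-fold. The other 6 (Chil3, Mgl2, Ccl17, Ccl22, Ccl24 and Cd209a) were below background on both arrays. Tgfb1 was at 0.92, although its second probe set was at -0.18, Fn1 at 0.73 and Tgm2 at 0.58, while the lectin gene Clec10a was at -0.71. Mrc1 itself was at -0.02. With no floor the median of this list was -0.13, so its sign rested on leaving out dim genes. Fibroblast and stromal markers were also above background on these arrays, and which cells gave the values of this list was not tested.

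**Figure D4:**
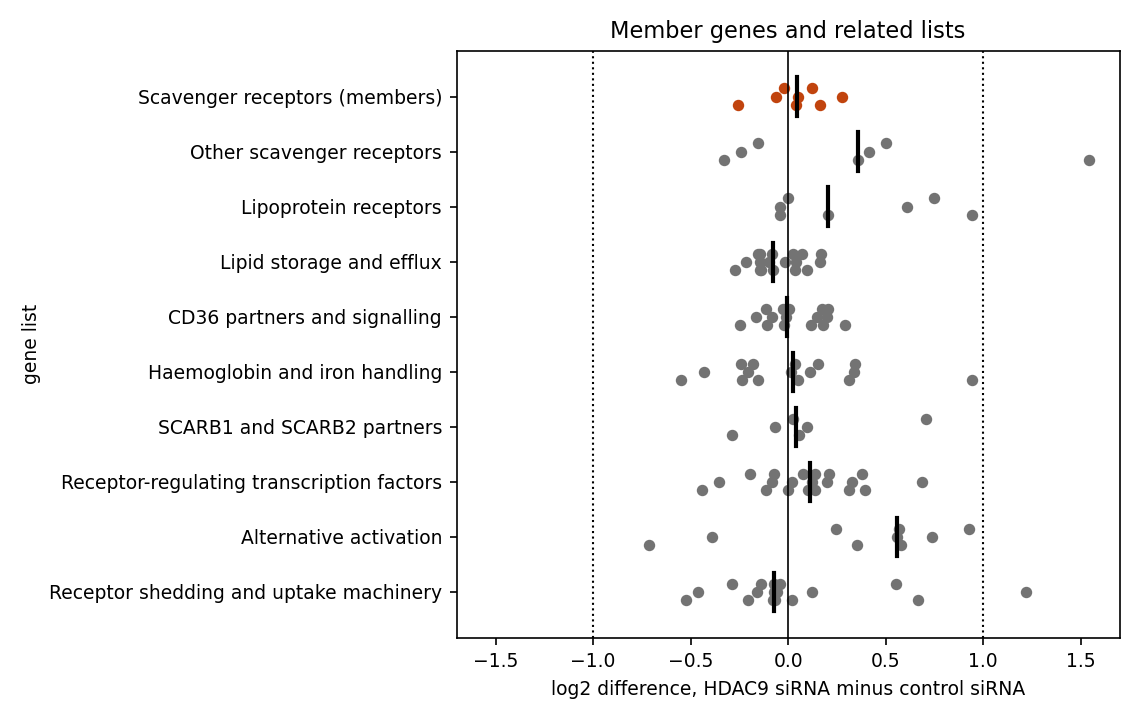
Log2 difference, HDAC9 siRNA minus control siRNA (horizontal axis), of each gene above background in the scavenger receptor list (top row) and in 9 related lists (rows below); each point is 1 gene by its brightest probe set, black bars are medians and dotted lines mark 2-fold. The 8 members lie between -0.26 and 0.28, and Scarf2 at 1.54 is the farthest point to the right.

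Markers of the labelled cell type and of others were read on the same arrays. Of 14 macrophage markers 13 were above background, with a summed linear signal of 104442 on the HDAC9 siRNA array and 106855 on the control array and a median difference of 0.0004; Cd14 was at -0.46, the peritoneal macrophage factor Gata6 at 0.46, Fcgr1 at 0.43 (its second probe set at -0.04) and Icam2 at 0.40. Some endothelial cells also express Cd36, Scarb1, Stab1, Mrc1 and Olr1. Of 11 endothelial markers 3 were above background (Vwf at 0.46, Kdr at 0.19 and Stab2 at -0.33), and the defining genes Pecam1 and Cdh5 were below it on both arrays. The summed signal of all 11, with the 8 below background included, was 954 on the HDAC9 siRNA array and 803 on the control array. Fibroblast and stromal markers were all above background, 10 of 10, with a summed signal of 62325 on the HDAC9 siRNA array and 46005 on the control array and a median difference of 0.38. The collagen genes Col1a1 (1.80), Col3a1 (1.46) and Col6a2 (1.44) were 2-fold higher, against 1.4% of all genes, and Thy1 was at -0.72. Pdgfra was at -0.10 (its other probe sets at 0.01 and 0.51), Pdgfrb at -0.18 (its second at -0.41) and Dcn at 0.13 (its second at 0.28). All 8 mesothelial markers were above background, with 5 of 8 lower and a median of -0.17, although their summed signal, which the brightest probe sets dominate, was 10622 on the HDAC9 siRNA array and 9273 on the control array. The largest differences were those of Msln (-1.11), Krt7 (-0.99), Lrrn4 (0.56) and Wt1 (0.44). The part of these cells in the scavenger receptor values was not tested.

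**Figure D5:**
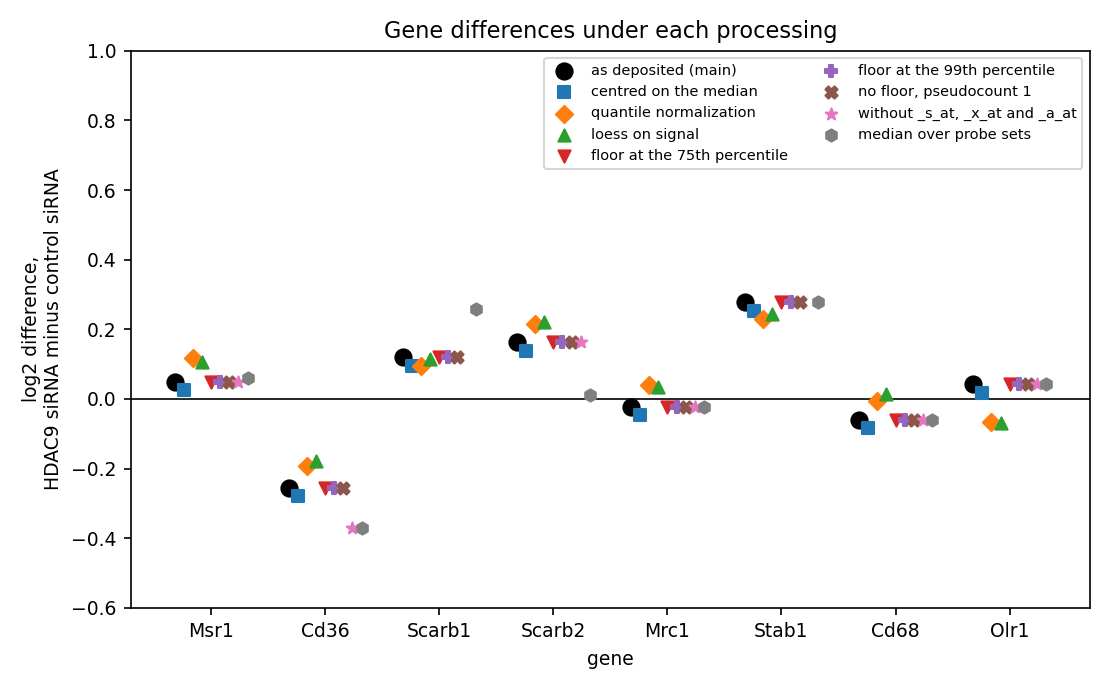
Log2 difference, HDAC9 siRNA minus control siRNA (vertical axis), of the 8 member genes above background (horizontal axis) with the values as deposited and under each other processing (symbols). Cd36 lies below 0 and Msr1, Scarb1, Scarb2 and Stab1 above 0 under every processing that gave a value, while Mrc1, Cd68 and Olr1 lie on both sides of 0.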

How the data were processed

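The authors deposited log2 signals, with 1 value per probe set and array. The submitters' processing notes name MAS5, the Affymetrix algorithm that reduces a probe set to 1 signal; they give no version, settings or detection calls. The deposited linear signals had a trimmed mean of 497 on both arrays (2% cut at each end), so the authors' scaling was kept. Genes were named from a platform annotation of 2016, checked by gene identifier against RefSeq (GRCm38.p6): 34945 probe sets had 1 symbol, 932 several and 9160 none, and only the first kind was used. Signals were raised to the floor and subtracted, HDAC9 siRNA minus control siRNA. A gene took the value of the probe set whose signal, averaged over both arrays, was brightest. Calculations used Python 3.11.15 with pandas 2.3.3, numpy 2.4.6 and statsmodels 0.14.6, and the steps were tested on simulated data. No test across samples was possible with 1 array per group, and that number limits the precision. The members, the related lists and the rule for named genes were chosen with earlier results of these data known. That rule takes all members, Hdac9, and in each list the up to 4 genes above background with the largest absolute differences, or all where 5 or fewer were above it. The related lists were other scavenger receptors, lipoprotein receptors, lipid storage and efflux, CD36 partners, haemoglobin and iron handling, SCARB1 and SCARB2 partners, regulating transcription factors, alternative activation, and receptor shedding and uptake. Pecam1 and Cdh5 were named for their role as defining markers, outside that rule. Also outside it, Pdgfra, Pdgfrb and Dcn were named after their values were seen. The alternative activation genes below background were named to complete that list. Similarity of pattern to other genes was not measured, because over 2 arrays every pair of probe sets moves together or apart by construction. Alternatives were centring, quantile normalization, loess (span 0.3), a lower floor (75th percentile), a higher one (99th percentile), a pseudocount of 1 in place of a floor, plain _at probe sets alone, the median over probe sets, and thresholds of 1.5-fold and 3-fold.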

Additional observations from a re-analysis of the deposited data

How the results depend on the processing

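Of 168 values of member genes and probe sets above background recomputed under the alternatives, all 168 moved from the main value by no more than the scatter of their signal bin. Of these, 10 changed sign, all of them of Mrc1, Cd68 or Olr1. Many of the 168 could hardly move. These members lie above every floor, so other floors and the pseudocount left their values almost unchanged. Leaving out suffixed probe sets does not change the remaining ones. A gene with 1 probe set enters both as gene and as probe set. Mrc1 turned to 0.04 after quantile normalization and 0.03 after loess, Olr1 to -0.07 under both, and Cd68 to 0.01 after loess. Cd36 ranged from -0.37 to -0.18 as a gene and Scarb1 from 0.09 to 0.26. Scarb1 and Stab1 have no value without suffixed probe sets. The median of the member genes ranged from 0.01 to 0.07. With no floor and a pseudocount of 1, 1 member gene (Cd163, at 2.66) and 2 member probe sets were 2-fold higher and none was lower, from signals below background. Genes 2-fold higher and lower over the whole table numbered 168 and 44. They numbered 629 and 253 with the lower floor (75th percentile), 2146 and 1450 with no floor, 928 and 328 at 1.5-fold and 10 and 6 at 3-fold. Higher genes numbered 108 after loess, and lower genes 21 with the higher floor (99th percentile). These shifts follow from the thresholds and the number of dim genes kept, except that after loess. Loess subtracts the trend of the differences with signal. From the dimmest to the brightest bin, the median difference of probe sets was 0.11, 0.09, 0.03 and -0.04. How much of the shift after loess this trend makes up was not tested. Of 72 list medians under alternatives 71 moved from the main median by no more than 0.29 and 7 changed sign. No paired analysis was possible because each group held 1 array. Signal over background limits Marco, Cd163 and Hdac9.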

Other observations

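Receptor shedding and uptake genes, which cut receptors from the surface or carry them into the cell, were measured as 17 genes, all above background. Their median log2 difference, HDAC9 siRNA minus control siRNA, was -0.07, with 12 below 0 and 5 above 0. Of all 12016 genes above background, 5531 were below 0 and 6485 above 0. The brightest bin of probe sets had a median of -0.04. The median of the list was -0.01 after quantile normalization and -0.01 after loess. Whether the split of the list differs from that of equally bright genes was not tested. Ap2a1, a subunit of the clathrin adaptor AP-2, had 8.65 log2 on the HDAC9 siRNA array and 7.43 on the control array, 2.33-fold higher by its only probe set. The caveolin gene Cav1 was at 0.67, the dynamin gene Dnm2 at 0.55 and the clathrin light chain gene Cltb at -0.52.

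Among blood cell markers, Siglecf, a receptor of eosinophils, had 8.13 log2 on the HDAC9 siRNA array and 9.21 on the control array, 2.11-fold lower, while the other mast cell and eosinophil marker above background, Tpsab1, was at 0.15 as a bound. Of 9 T cell markers 5 were above background, from Cd8a (-0.78, a bound), the adaptor gene Lat (-0.77), Thy1 (-0.72) and the costimulator gene Cd28 (-0.64) to the cytokine receptor gene Il7r (0.04), and the T cell receptor genes Cd3d, Cd3e and Cd3g were below background on both arrays. Neutrophil markers were Csf3r at 0.45, Mmp8 at 0.10 and S100a8 at -0.22. Dendritic cell markers were Zbtb46 at 0.26 (its other probe sets at 0.54, a bound, and -0.31) and Itgax at -0.18, the NK cell marker Prf1 was at 0.07, and the B cell factor Pax5 was at 0.39 as a bound.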
